A study of Mus musculus with 2 samples.

Results

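C1q macrophages without Kupffer markers were chosen cell by cell from single-cell RNA libraries of mouse liver non-parenchymal cells. A barcode was a member when it held at least 3 UMIs (unique molecular identifiers, one per captured transcript) summed over C1qa, C1qb and C1qc. It also had to hold fewer than 2 UMIs summed over the Kupffer genes Clec4f, Vsig4, Cd5l and Timd4, and fewer than 3 over the endothelial genes Stab2, Clec4g and Kdr. At least 1 UMI of Cx3cr1, Ccr2 or Cd207 completed the gate. Barcodes under 500 UMIs or 200 genes, or with more than 20% of UMIs from mitochondrial genes, had been dropped. The gate kept 170 cells of 27814, which is 0.611% of the cells that passed these filters.

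Hep-ADKTg livers came from 5-month-old male mice in which the albumin promoter drives overexpression of adenosine kinase in hepatocytes, so the members themselves are not the cells the transgene targets. Hep-ADKWT livers came from control males of the same age, and both groups ate standard chow and received no drug. The labels do not name the strain. Each group is 1 library, and the labels do not state whether it holds cells of 1 mouse or of several. Genotype, animal, cell preparation and library are therefore one division of the data, which cannot be told apart, and the differences given here are unreplicated and carry no p-value.

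C1q is the recognition part of the classical complement pathway, built from the A, B and C chains that C1qa, C1qb and C1qc encode. In tissues it is made mainly by macrophages. Kupffer cells, the resident macrophages of the liver sinusoid, are marked in mice by Clec4f, Vsig4, Cd5l and Timd4. Other liver macrophages lie in the capsule and around portal and central veins. Cx3cr1 is the fractalkine receptor of monocytes and many tissue macrophages, Ccr2 is the chemokine receptor through which blood monocytes enter tissue, and Cd207 (langerin) is a C-type lectin of Langerhans cells and of some other macrophages and dendritic cells.

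The C1q chains that define the members are neighbours on chromosome 4. C1qa (ENSMUSG00000036887) spans 136895917 to 136898803, C1qb (ENSMUSG00000036905) 136880129 to 136886187 and C1qc (ENSMUSG00000036896) 136889804 to 136893065, all on the minus strand of GRCm38. Across members the chains moved together in counts divided by each cell's total UMIs, a divisor that all pairs share. Spearman correlations lay between 0.73 and 0.83 in Hep-ADKTg and between 0.79 and 0.83 in Hep-ADKWT, over 94 and 76 cells. The promoters of 2 of the chains are shown for that reason, from 250 bases before to 50 bases after the RefSeq start (GRCm38.p6), 5′ to 3′ on the minus strand. Capitals mark GAGGAA or its reverse complement TTCCTC, a purine-rich core of sites bound by PU.1, the factor encoded by Spi1 that specifies the myeloid lineage.
C1qb (chr4:136886151-136886450): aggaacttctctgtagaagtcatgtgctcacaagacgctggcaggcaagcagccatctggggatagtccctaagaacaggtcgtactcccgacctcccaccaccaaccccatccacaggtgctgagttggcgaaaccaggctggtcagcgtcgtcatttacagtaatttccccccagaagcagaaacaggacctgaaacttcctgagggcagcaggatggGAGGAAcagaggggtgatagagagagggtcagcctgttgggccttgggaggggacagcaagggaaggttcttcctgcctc
C1qc (chr4:136892865-136893164): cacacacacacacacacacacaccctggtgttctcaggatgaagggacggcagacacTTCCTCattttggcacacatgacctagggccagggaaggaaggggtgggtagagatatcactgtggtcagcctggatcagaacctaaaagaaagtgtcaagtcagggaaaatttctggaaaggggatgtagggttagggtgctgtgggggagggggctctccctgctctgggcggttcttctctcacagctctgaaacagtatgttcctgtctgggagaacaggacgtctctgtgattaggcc
Each window holds 1 match, as GAGGAA 30 bases before the start in C1qb and as TTCCTC 193 bases before it in C1qc. The Cd207 window also holds 1, and those of Cx3cr1 and Ccr2 hold none. The same 6 letters occur on either strand in 28.3% of the 27025 RefSeq promoters of this length, so a match is common.

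Members made up 0.633% of kept cells in Hep-ADKTg (94 of 14853, 95% exact binomial interval 0.512 to 0.774) and 0.586% in Hep-ADKWT (76 of 12961, 0.462 to 0.733). The ratio of the shares was 1.08 (0.789 to 1.48), so a difference was not detectable at these cell numbers. Kupffer-gated cells, with 2 or more UMIs of the Kupffer genes, numbered 28 in Hep-ADKTg and 14 in Hep-ADKWT, fewer than the members in both livers. C1q cells with neither Kupffer nor gate genes were 64 in Hep-ADKTg and 20 in Hep-ADKWT, a share ratio of 2.79 (1.67 to 4.87). Of all C1q macrophages the members were 50.5% (43.1 to 57.9) in Hep-ADKTg, against 69.1% (59.6 to 77.6) in Hep-ADKWT, and the ratio of 0.731 had an interval of 0.535 to 1.003. The cells with neither were shallow, with medians of 1244.5 UMIs in Hep-ADKTg and 815.5 in Hep-ADKWT, and the part of depth in the shares of 50.5% and 69.1% was not tested. All intervals here cover counting error only.

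**Figure D1:**
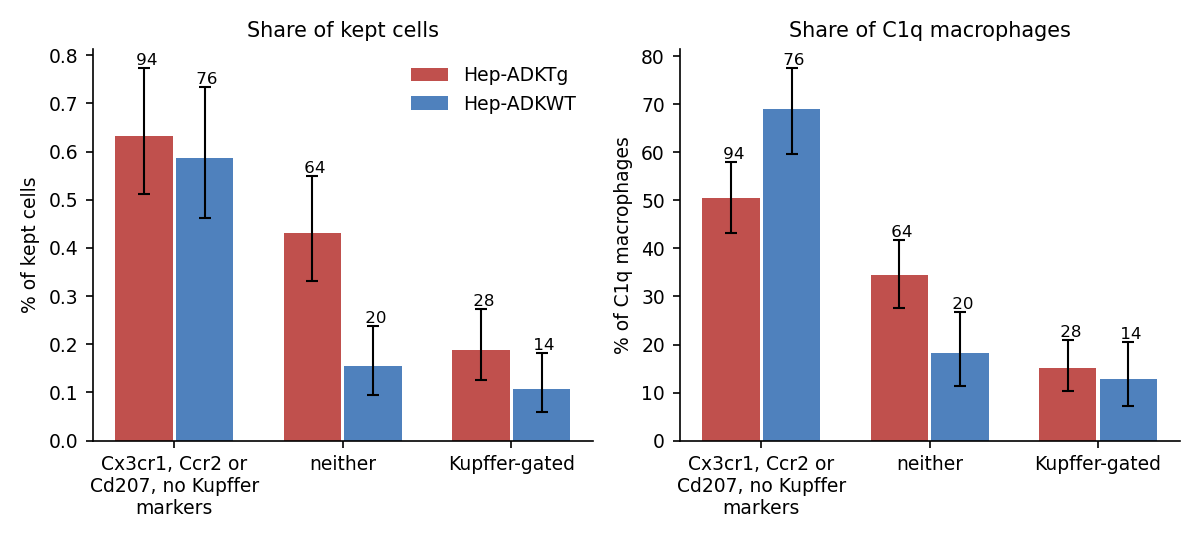
Share of kept cells (left, %) and of C1q macrophages (right, %) in each gate, with Hep-ADKTg in red and Hep-ADKWT in blue; bars start at 0, whiskers are exact 95% binomial intervals and the numbers are cells. The members are 94 and 76 cells and outnumber the Kupffer-gated cells in both libraries, and the cells with neither are 64 in Hep-ADKTg and 20 in Hep-ADKWT.

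The libraries held 96481752 UMIs in 17462 barcodes for Hep-ADKTg and 97135016 in 15663 for Hep-ADKWT, and the kept cells had medians of 2812 and 4915 UMIs. Members were deeper, with a median of 5103 UMIs (638 to 33825) in Hep-ADKTg and 7227.5 (513 to 52172) in Hep-ADKWT. They held a median of 43 C1q UMIs per cell (3 to 205) in Hep-ADKTg and 37.5 (3 to 181) in Hep-ADKWT. Just inside the C1q threshold, at 3 UMIs, were 4 Hep-ADKTg and 3 Hep-ADKWT cells, and 5 in each library stood just outside at 2. The gate genes rested on a single UMI in 22 Hep-ADKTg and 12 Hep-ADKWT members. A Kupffer gene had 1 UMI in 3 Hep-ADKTg and 2 Hep-ADKWT members, and exactly 2 UMIs kept out 1 and 2 further cells. The libraries shared 88 barcode sequences, 2 of them carried by members.

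Adk, the gene overexpressed by design, was 341 CPM (UMIs of a gene per 1000000 UMIs) over all kept cells of Hep-ADKTg and 85.4 CPM in Hep-ADKWT. Cells with over 20% of their UMIs from the hepatocyte list, where the transgene acts, held 525 CPM (517 to 533) in Hep-ADKTg and 479 CPM (451 to 507) in Hep-ADKWT. Whether a 3′ tag counts the transgene is not stated, so this checks neither label. Members held 112 CPM in Hep-ADKTg and 19.9 CPM in Hep-ADKWT. B cells, gated on 5 or more UMIs of Cd79a, Cd79b and Ms4a1, held 111 CPM in Hep-ADKTg and 43.7 CPM in Hep-ADKWT, the same order.

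The 3 gate genes marked overlapping cells. Cx3cr1 was seen in 79.8% of members in Hep-ADKTg (75 of 94) and in 73.7% in Hep-ADKWT (56 of 76). Ccr2 was seen in 53.2% in Hep-ADKTg and 63.2% in Hep-ADKWT, and Cd207 in 24.5% in Hep-ADKTg and 28.9% in Hep-ADKWT. B cells, which should lack these genes, gave background levels of 0.679%, 1.13% and 0.151% for Cx3cr1, Ccr2 and Cd207 in Hep-ADKTg at a median of 3156 UMIs, and of 0.585%, 2.88% and 0% in Hep-ADKWT at a median of 3604 UMIs. Free RNA and barcodes that hold more than 1 cell were not told apart in this background. With every member thinned to 1000 UMIs and kept as a member, leaving out 6 shallower members of each library, the shares were 39.8% and 38.6% for Cx3cr1, 35.2% and 30% for Ccr2, and 14.8% and 20% for Cd207, and every pair of intervals overlapped. These genes chose the members, so their levels describe the gate. Among the C1q chains, which also chose them, C1qa was 2917 CPM in Hep-ADKTg and 2176 CPM in Hep-ADKWT, C1qb 3135 and 2427 CPM, and C1qc 2176 and 1597 CPM.

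Cells with Cx3cr1 and Ccr2 together but no Cd207 UMI were the most frequent kind in both libraries, 32 in Hep-ADKTg and 22 in Hep-ADKWT. Cx3cr1 alone was seen in 28 and 18 cells, Ccr2 alone in 11 and 14, and all 3 genes in 7 and 9. Ccr2-only cells carried little C1q, with medians of 13 UMIs in Hep-ADKTg and 10 in Hep-ADKWT, against 50 and 66.5 in Cx3cr1-only cells. Of these Ccr2-only cells, 6 of 11 in Hep-ADKTg and 10 of 14 in Hep-ADKWT had 2 or more UMIs of the 8 monocyte markers, against 11 of 28 and 4 of 18 Cx3cr1-only cells. Cells with Cd207 alone numbered 8 and 3 and were shallow, with medians of 1187 and 858 UMIs.

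The label was checked against lineage markers. Csf1r, the receptor for the macrophage growth factor, was seen in 80.9% of members in Hep-ADKTg (581 CPM) and 86.8% in Hep-ADKWT (704 CPM), while B cells had it in 0.754% and 0.99%. Adgre1, which encodes F4/80, stood at 200 CPM in Hep-ADKTg and 218 CPM in Hep-ADKWT. The rule itself held Clec4f, Vsig4, Cd5l and Timd4 low, so their zeros (Clec4f in Hep-ADKTg, Cd5l and Timd4 in Hep-ADKWT) and part of the low sum of the 10 Kupffer markers, 165 CPM in Hep-ADKTg and 124 CPM in Hep-ADKWT, check nothing. Among the Kupffer markers that the rule did not use, Cd163, a scavenger receptor for haemoglobin, was at 0 in both libraries, and Marco, another scavenger receptor, had 1 UMI in each. Slc40a1, also outside the rule, was present. Its UMIs were seen in 16.0% of members in Hep-ADKTg (25 UMIs) and 22.4% in Hep-ADKWT (52 UMIs), against 3.70% and 2.61% of B cells. Clec1b, outside the rule as well, was also present. Over both libraries it was seen in 5.26% to 44.4% of cells in the clusters of members described below. B cells had it in 1.58% in Hep-ADKTg and 1.89% in Hep-ADKWT. In all, 8 of the 10 Kupffer markers had a UMI in Hep-ADKTg members and 7 in Hep-ADKWT members, so these markers were not uniformly absent. Transcripts of other lineages were present too. The hepatocyte list took 3.77% of members' UMIs in Hep-ADKTg, with single cells from 0.396 to 26.0%, and 0.402% in Hep-ADKWT, from 0.0606 to 6.4%. The 10 B and plasma markers summed to 719 CPM in Hep-ADKTg and 28834 CPM in Hep-ADKWT, where 1 cell held 72.0% of them. The 14 T and NK markers summed to 611 and 1849 CPM, and the 9 neutrophil markers to 1744 and 73.9 CPM, with 54.7% of the Hep-ADKTg neutrophil UMIs in 1 cell. Erythroid markers took 0.838% of UMIs in Hep-ADKTg, 98.9% of them in 1 cell, and 1.67% in Hep-ADKWT, 57.7% of them in 1 cell. Basophil and mast markers were at 0 in Hep-ADKTg and at 1 UMI in Hep-ADKWT.

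Set beside Kupffer-gated cells of the same library, members held more class II antigen presentation transcripts and fewer Kupffer and scavenger transcripts in both livers. Gene counts below take genes with at least 20 UMIs, of which 3 were due in the smaller group at the pooled level. By any amount, 49.8% of 4045 such genes were higher and 50.2% lower in members in Hep-ADKTg, and 50.7% of 2774 were higher and 49.3% lower in Hep-ADKWT. The gates chose these cells on measured genes, so the values describe them, and the Kupffer-gated cells held only 81073 UMIs in Hep-ADKTg and 57693 in Hep-ADKWT.

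Class II genes were higher in members for 8 of 9 genes in Hep-ADKTg, with a median log2 ratio of 1.94, and for 9 of 10 in Hep-ADKWT, with a median of 1.03. H2-Ab1, the beta chain of I-A, stood at 4904 CPM in members and 654 CPM in Kupffer-gated cells of Hep-ADKTg, and at 6408 and 2895 CPM in Hep-ADKWT. Ciita, the transcriptional activator of the class II genes, was 172 against 12.3 CPM in Hep-ADKTg, where the lower value is 1 UMI, and 239 against 52.0 CPM in Hep-ADKWT. Cd86, a costimulatory ligand, was lower in both livers, the one exception among the measured genes, with 86.8 CPM in members and 98.7 CPM in Kupffer-gated cells of Hep-ADKTg, and 71.1 and 139 CPM in Hep-ADKWT.

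Kupffer genes outside the rule were lower in members for 15 of 15 genes in Hep-ADKTg (median log2 ratio -3.98) and 8 of 8 in Hep-ADKWT (-0.44). Slc40a1, the iron exporter ferroportin, stood at 41.7 CPM in members and 1344 CPM in Kupffer-gated cells of Hep-ADKTg, and at 73.9 and 763 CPM in Hep-ADKWT. Nr1h3, the oxysterol receptor LXR alpha that maintains Kupffer identity, was 63.4 against 419 CPM in Hep-ADKTg and 35.6 against 329 CPM in Hep-ADKWT. Other Kupffer-associated genes were close between the cells: Cd81, a tetraspanin, was 763 against 826 CPM in Hep-ADKTg and 567 against 607 CPM in Hep-ADKWT. Scavenger and efferocytosis receptors were lower for 10 of 12 genes in Hep-ADKTg and 8 of 8 in Hep-ADKWT. Mertk, a receptor for apoptotic cells, was 70.1 against 210 CPM in Hep-ADKTg and 46.9 against 121 CPM in Hep-ADKWT. Lysosome genes split the libraries, with 4 of 20 higher in Hep-ADKTg and 12 of 19 in Hep-ADKWT.

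Monocyte genes were higher in members than in Kupffer-gated cells for 7 of 8 genes in Hep-ADKTg and 8 of 10 in Hep-ADKWT. The 10 genes that led the members over Kupffer-gated cells in both libraries were Ccr2 (a gate gene), Napsa, Ms4a7, Ms4a4c, Gpr141, Emb, Itgax, Gbp2, Slamf8 and Arhgap25. Ms4a7, a membrane protein of macrophages, stood at 237 CPM in members and 24.7 CPM in Kupffer-gated cells of Hep-ADKTg, and at 245 and 34.7 CPM in Hep-ADKWT. Itgax, the integrin CD11c, was 142 against 12.3 CPM in Hep-ADKTg and 134 against 17.3 CPM in Hep-ADKWT. The Kupffer levels of Ms4a7 and Itgax rest on 1 or 2 UMIs in each library. Cd207 ran the other way in Hep-ADKWT, with 309 CPM in members and 1057 CPM in Kupffer-gated cells, whereas members of Hep-ADKTg held 259 CPM and Kupffer-gated cells 98.7 CPM. The 3 gate genes together had a median of 1 UMI in the 14 Hep-ADKWT Kupffer-gated cells and 52 in the highest, so few cells carried most of the 1057 CPM. In Hep-ADKWT 8 of the 14 Kupffer-gated cells also met the Cx3cr1, Ccr2 or Cd207 gate, and in Hep-ADKTg 3 of 28 did.

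Monocyte-gated cells had no C1q UMI, at least 1 of Csf1r, at least 2 of Ly6c2, Chil3, Vcan and F13a1 and none of the plasmacytoid dendritic cell genes Siglech and Ccr9, and numbered 118 in Hep-ADKTg and 151 in Hep-ADKWT. Against them 54.4% of 7739 genes were higher and 45.6% lower in members in Hep-ADKTg, and 47.7% of 8674 were higher and 52.3% lower in Hep-ADKWT. Macrophage identity genes were higher in members for 13 of 16 genes in both libraries, with medians of 0.60 in Hep-ADKTg and 0.87 in Hep-ADKWT. Class II genes were higher for 11 of 12 in Hep-ADKTg (median 1.37) and 12 of 12 in Hep-ADKWT (1.56). Monocyte genes were lower for 14 of 15 in each, with medians of -2.47 in Hep-ADKTg and -2.00 in Hep-ADKWT, but 4 of the 15 gated the monocytes, which partly sets the direction. The 11 others were lower for 10 in each, with medians of -2.21 in Hep-ADKTg and -1.61 in Hep-ADKWT, in cells still chosen by related genes. Plac8, a cysteine-rich protein of monocytes, stood at 714 CPM in members and 3719 CPM in monocyte-gated cells of Hep-ADKTg, and at 1015 and 2787 CPM in Hep-ADKWT. Apoe, the lipid carrier that macrophages and hepatocytes both make, was 13926 against 1525 CPM in Hep-ADKTg and 8542 against 950 CPM in Hep-ADKWT. Lyz2 was lower in members than in monocyte-gated cells and higher than in Kupffer-gated cells: 4243 CPM in members, 15389 CPM in monocyte-gated and 1665 CPM in Kupffer-gated cells of Hep-ADKTg, and 5572, 13970 and 2877 CPM in Hep-ADKWT.

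The C1q cells with neither Kupffer nor gate genes were set beside members in the same way. Of 5125 genes 57.8% were higher and 42.2% lower in members of Hep-ADKTg, and of 924 genes 60.6% were higher and 39.4% lower in Hep-ADKWT, where these cells held only 21456 UMIs. Class II genes were higher in members for 9 of 10 in Hep-ADKTg (median 0.60) and for 3 of 8 in Hep-ADKWT (-0.12). H2-Ab1 stood at 4904 CPM in members and 3332 CPM in the cells with neither in Hep-ADKTg, and at 6408 and 6478 CPM in Hep-ADKWT. Csf1r was 581 against 275 CPM in Hep-ADKTg, and 704 against 466 CPM (10 UMIs) in Hep-ADKWT. Ms4a7 was close, with 237 against 230 CPM in Hep-ADKTg.

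**Figure D2:**
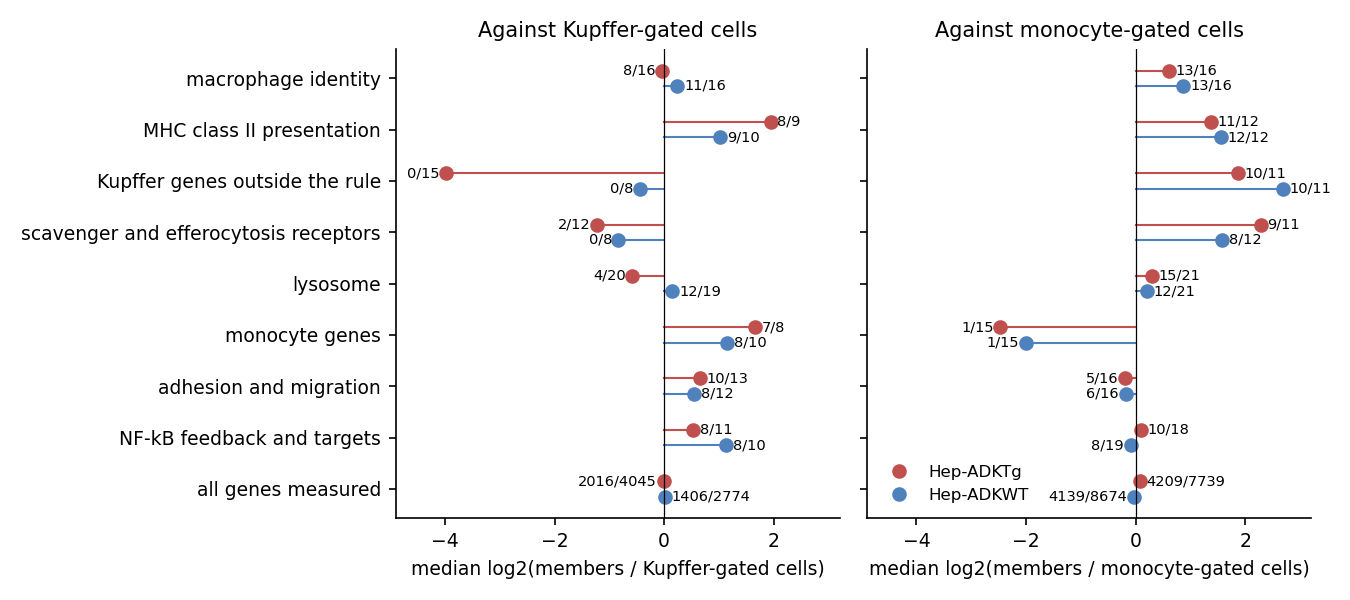
Median log2 ratio of summed CPM for each gene list, members over Kupffer-gated cells (left) and over monocyte-gated cells (right), within Hep-ADKTg (red) and Hep-ADKWT (blue); the numbers are genes higher in members of genes measured. Class II genes lie right of 0 in all 4 comparisons, with 8 of 9, 9 of 10, 11 of 12 and 12 of 12 genes higher.

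The members were not one uniform population. Clustered on their own by 1000 variable genes, they fell into 5 clusters, and only clusters 3, 4 and 5, the smaller ones, held at least 5 cells of each liver. Clusters 1 and 2 divided by library. Cluster 1 held 60 Hep-ADKTg cells and 1 Hep-ADKWT cell, was led by Saa1, Saa2, Serpina1e, Orm1 and Hpx, which are secreted hepatocyte proteins, and was enriched for 29 of 29 hepatocyte markers. Cluster 2 held 4 Hep-ADKTg and 40 Hep-ADKWT cells and was led by Slc40a1, Mmp13, Mrc1, Cx3cr1 and Ptgs1, with a median of 75 C1q UMIs. Hepatocyte transcripts took a median of 3.72% of UMIs in cluster 1 and 0.493% in cluster 2, so they moved with the split, and their part in it was not tested. The hepatocyte list was left out of the variable genes, but other hepatocyte transcripts, such as those that lead cluster 1, were not. The cells were clustered on their own expression, so the leading genes are no result between the livers.

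Cluster 3, with 8 Hep-ADKTg and 20 Hep-ADKWT cells, was led by Cd79a, Gzmb, Ptprcap, Ly6d and Cd3g and was enriched for 13 of 14 T and NK and 10 of 10 B and plasma markers. Its cells were deep, with a median of 11490 UMIs, and carried a median of 69 UMIs of other lineages. None had a Scrublet doublet score above 0.2, but the score cannot decide whether these barcodes hold 1 cell. A Hep-ADKWT cell of this cluster with 14643 other-lineage UMIs scored only 0.116. Whether the cluster holds mixed barcodes was not tested. Cluster 4, with 9 Hep-ADKTg and 10 Hep-ADKWT cells, was led by Cxcl9, Chil3, Cxcl10, Gbp2 and Ly6i, was enriched for 8 of 8 monocyte markers and held a median of only 9 C1q UMIs. Cluster 5, with 13 Hep-ADKTg and 5 Hep-ADKWT cells, was led by the cell cycle genes Mki67, Cenpf, Top2a, Pclaf and Stmn1 and held a median of 74.5 C1q UMIs. None of the clusters was given a cell type name, since lymphocyte, monocyte or hepatocyte markers accompany the C1q chains in clusters 1, 3 and 4.

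**Figure D3:**
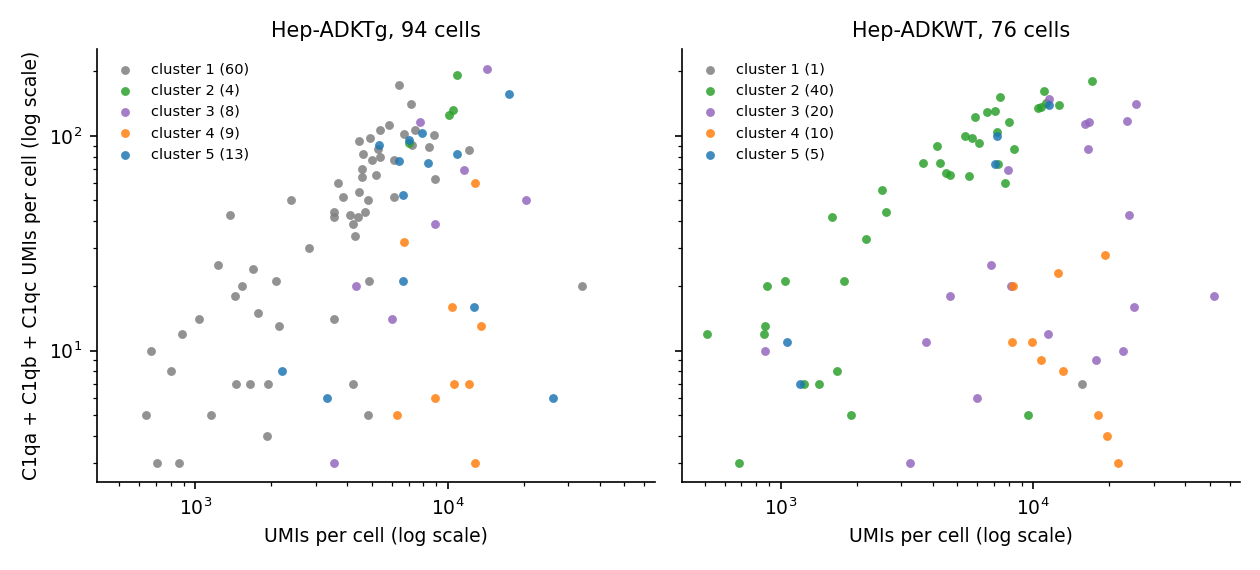
C1qa, C1qb and C1qc UMIs against all UMIs for each member (both axes logarithmic), in Hep-ADKTg (left, 94 cells) and Hep-ADKWT (right, 76 cells), coloured by cluster. Cluster 4 lies low in C1q at high depth, with a median of 9 C1q UMIs, while clusters 2 and 5 reach medians of 75 and 74.5.

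Between the livers, members of Hep-ADKTg held more Il1b, Ccl3, Ccl4, Fos, Dusp1 and Irf7 and, in the sums, more cell cycle transcripts than members of Hep-ADKWT. In the sums they held less Cxcl9 and Cxcl10, less of most monocyte genes and slightly less of most class II genes, and each of these directions turned in at least 1 choice of cells or depth, as given with each result. Levels are CPM of the summed members, 599329 UMIs in Hep-ADKTg and 703198 in Hep-ADKWT, and log2 ratios are Hep-ADKTg over Hep-ADKWT with exact 95% intervals for counting error. Of 3792 genes with at least 50 UMIs, 8.78% were past 2-fold with an interval that left out equality: 6.17% higher and 2.61% lower in Hep-ADKTg. The 7016 genes with at least 20 UMIs had a median log2 ratio of 0.08, with 55.7% higher and 44.3% lower. Hepatocyte transcripts moved the same way in every gene, 29 of 29 higher with a median of 3.34, and T and NK markers the other way, 13 of 13 lower with a median of -1.52. Fewer cells of a kind among the members and less RNA per cell cannot be told apart in these sums.

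**Figure D4:**
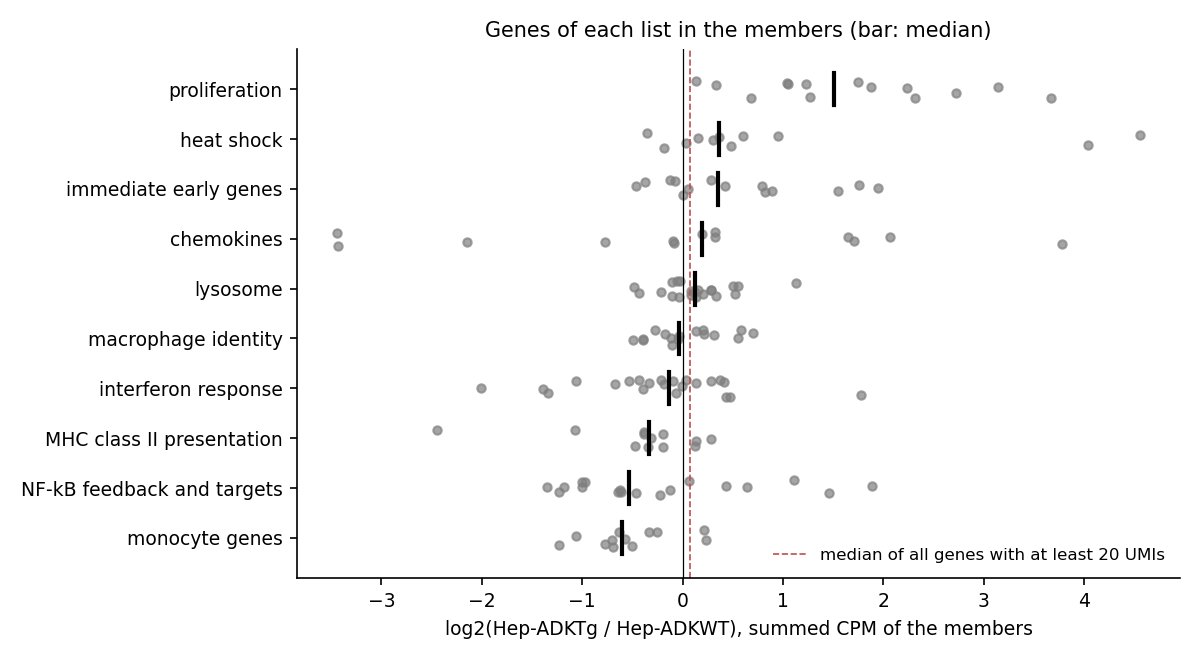
Log2 ratio of summed CPM, Hep-ADKTg over Hep-ADKWT, for the genes of 10 lists in the members, each point a gene with at least 20 UMIs, the black bar the list's median and the dashed line the median of all genes (0.08). Proliferation genes lie right of 0 in 14 of 14 cases, and monocyte genes have a median of -0.60.

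Inflammatory cytokines and mediators did not move together: 2 of 6 genes were higher and 4 lower, with a median of -0.38. Il1b, a cytokine which activates endothelium and leukocytes, stood at 531 CPM (474 to 592) in Hep-ADKTg and 134 CPM (108 to 164) in Hep-ADKWT, a log2 ratio of 1.99 (1.65 to 2.34). It was seen in 53 of 94 Hep-ADKTg and 29 of 76 Hep-ADKWT members. At 1000 UMIs per cell it was seen in 34.1% (24.3 to 45.0) and 17.1% (9.18 to 28.0), intervals that overlap. The 3 highest cells held 21.4% of its UMIs in Hep-ADKTg and 31.9% in Hep-ADKWT. By cluster it was 791 CPM in the 60 Hep-ADKTg cells of cluster 1 and 271 CPM in the 40 Hep-ADKWT cells of cluster 2. Within clusters the order varied. Cluster 2 held 208 CPM in 4 Hep-ADKTg cells, below its Hep-ADKWT value. Cluster 5 was close, with 290 CPM in 13 Hep-ADKTg and 249 CPM in 5 Hep-ADKWT cells. Hep-ADKTg was higher in cluster 3 (287 and 78.9 CPM) and cluster 4 (426 and 35.4 CPM). B cells held 4.12 CPM in Hep-ADKTg and 18.8 CPM in Hep-ADKWT, the opposite order. Monocyte-gated cells held 67.5 CPM in Hep-ADKTg and 114 CPM in Hep-ADKWT, and Kupffer-gated cells 136 and 139 CPM.

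The CC chemokines Ccl3 and Ccl4, which attract monocytes and T cells, were higher too. Ccl4 was 435 CPM in Hep-ADKTg and 139 CPM in Hep-ADKWT (log2 ratio 1.64, 1.30 to 1.99). Ccl3 was 190 and 58.3 CPM (1.71, 1.18 to 2.26). The 3 highest cells held 44.4% of the Ccl4 UMIs in Hep-ADKTg and 59.2% in Hep-ADKWT. For Ccl3 they held 29.8% and 39.0%. With members thinned as for Il1b, Ccl4 was seen in 20.5% (12.6 to 30.4) in Hep-ADKTg and 10% (4.12 to 19.5) in Hep-ADKWT. Ccl3 was seen in 14.8% (8.11 to 23.9) and 7.14% (2.36 to 15.9). The intervals overlap for both genes. Cxcl2, a neutrophil attractant, was 148 CPM in Hep-ADKTg and 35.6 CPM in Hep-ADKWT, but 3 cells held 66.3% and 92% of its UMIs. Tnf was 33.4 and 24.2 CPM, and its interval of -0.54 to 1.49 reached past equality. Il1rn, the antagonist of the interleukin-1 receptor, was lower, with 9 UMIs in Hep-ADKTg and 41 UMIs in Hep-ADKWT. Of 13 chemokines measured, 3 were past 2-fold higher and 3 past 2-fold lower among the 11 tested, and the list's median of 0.19 lay below 0 in 4 of 17 alternatives.

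NF-kB feedback genes and targets had a median of -0.54, with 6 of 18 genes higher and 12 lower. Nfkbiz, an inhibitor-like cofactor that NF-kB induces, was 215 CPM in Hep-ADKTg and 78.2 CPM in Hep-ADKWT (log2 ratio 1.46), and Nfkbia, the inhibitor IkB alpha, was 365 and 235 CPM (0.64). Sod2, the mitochondrial superoxide dismutase, was lower, with 130 CPM in Hep-ADKTg and 294 CPM in Hep-ADKWT, as was Tnfaip2 with 117 and 297 CPM. The list's median turned to 0.59 among members with fewer than 3 monocyte-marker UMIs, a division added after the data had been seen.

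Immediate early genes were higher for 10 of 14 genes, with a median of 0.35, which was -0.12 among members with 20 or more C1q UMIs. Fos, a subunit of the AP-1 factor, was 522 CPM (466 to 583) in Hep-ADKTg and 179 CPM (149 to 213) in Hep-ADKWT, a log2 ratio of 1.54. Dusp1, a phosphatase that ends MAP kinase signals, was 399 and 104 CPM (1.94). Atf3, a stress-induced repressor, was 81.8 CPM in Hep-ADKTg and 24.2 CPM in Hep-ADKWT (1.76), whereas Jund stood at 294 and 405 CPM (-0.46). Fos and Dusp1 in B cells were 102 and 41.2 CPM in Hep-ADKTg, against 81.8 and 37.4 CPM in Hep-ADKWT. Cell preparation and genotype cannot be told apart in these genes.

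Heat shock genes were higher for 9 of 11, with a median of 0.36. Hspa1a, the inducible HSP70, was 100 CPM in Hep-ADKTg (60 UMIs in 20 cells) and 4.27 CPM in Hep-ADKWT (3 UMIs), and Hspa1b had 42 UMIs in Hep-ADKTg and none in Hep-ADKWT. With the floor of 3 UMIs in place of 0, Hspa1b was 16.4-fold higher, a value that depends on the floor. B cells held 25.8 CPM of Hspa1a in Hep-ADKTg and 0.772 CPM in Hep-ADKWT, the same direction. Hspa8, the constitutive chaperone, stood at 1013 and 1291 CPM (-0.35).

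Proliferation genes were higher for 14 of 14 genes, with a median of 1.51, and 6 of the 8 genes with at least 50 UMIs were past 2-fold. Mki67, a marker of cycling cells, was 300 CPM (258 to 348) in Hep-ADKTg and 34.1 CPM (21.9 to 50.8) in Hep-ADKWT, and Top2a, which untangles DNA at mitosis, was 179 and 27.0 CPM. The 3 highest cells held 56.7% of the Mki67 UMIs in Hep-ADKTg and 70.8% in Hep-ADKWT, and 97.2% of those in Hep-ADKTg lay in the 13 cells of cluster 5. Cells with 10 or more UMIs of the list were 18 of 94 (19.1%) in Hep-ADKTg and 19 of 76 (25%) in Hep-ADKWT, but those cells had a median of 7537.5 UMIs in Hep-ADKTg and 16667 UMIs in Hep-ADKWT, so depth moved with this share and its part was not tested. In Hep-ADKWT 62.5% of the Mki67 UMIs lay in cluster 3, whose cells also held lymphocyte transcripts. Without members of 10 or more list UMIs, left out after the data had been seen, the median was -0.24. Cells with an Mki67 UMI were 18 and 8, and after thinning 9.09% (4.01 to 17.1) and 1.43% (0.0362 to 7.70), intervals that overlap.

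Interferon-gamma target chemokines were far lower in the Hep-ADKTg sum, in very few cells. Cxcl9, which recruits T cells through Cxcr3, was 135 CPM (107 to 168) in Hep-ADKTg and 1462 CPM (1374 to 1554) in Hep-ADKWT, a log2 ratio of -3.44, and Cxcl10, a ligand of the same receptor, was 46.7 and 506 CPM (-3.44). Cxcl9 was seen in 7 of 94 Hep-ADKTg and 10 of 76 Hep-ADKWT members, and 3 cells held 80.2% and 68.4% of its UMIs. Cluster 4, in which monocyte markers were enriched, held 96.3% of them in Hep-ADKTg and 99.1% in Hep-ADKWT. Within that cluster Cxcl9 was 830 CPM over 9 Hep-ADKTg cells and 7209 CPM over 10 Hep-ADKWT cells. Among members with fewer than 3 monocyte-marker UMIs, 65 Hep-ADKTg and 49 Hep-ADKWT cells, Cxcl9 was 11.2 CPM in Hep-ADKTg and 34.6 CPM in Hep-ADKWT. Cxcl10 turned direction there, with 78.5 CPM in Hep-ADKTg and 53.8 CPM in Hep-ADKWT (0.55), as it did among members with 20 or more C1q UMIs, with 52.3 and 38.3 CPM (0.45). For log2 ratios and list medians after thinning, here and below, kept cells of at least 1000 UMIs were all thinned to 1000 and gated again. That left 50 Hep-ADKTg and 45 Hep-ADKWT members, a smaller set than the members thinned for the shares of cells above. In that set the log2 ratio of Cxcl9 was 0.17 and that of Cxcl10 was 0.85. Of the 28 Cxcl10 UMIs in Hep-ADKTg members, 1 cell held 57.1% and 2 cells of cluster 5 held 67.9%, so these turned values rest on very few cells.

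The guanylate-binding proteins, which act against intracellular pathogens, ran the same way in the sums. Gbp2 was 150 CPM in Hep-ADKTg and 380 CPM in Hep-ADKWT (-1.34), and Gbp5 had 18 UMIs in Hep-ADKTg and 85 UMIs in Hep-ADKWT (-2.01). In members with fewer than 3 monocyte-marker UMIs, Gbp2 stood at 37.4 CPM in Hep-ADKTg and 38.4 CPM in Hep-ADKWT, and the log2 ratio of Gbp5 turned to 0.28; without members of 2 or more other-lineage UMIs that of Gbp2 was 0.23. Irf7, the factor that amplifies type I interferon, was the opposite, with 180 CPM (148 to 218) in Hep-ADKTg and 52.6 CPM (37.0 to 72.5) in Hep-ADKWT, a log2 ratio of 1.78. It was spread over 50 Hep-ADKTg and 21 Hep-ADKWT cells, and B cells held it in 7.24% of cells in Hep-ADKTg and 6.88% in Hep-ADKWT. The interferon list as a whole had 8 of 22 genes higher and a median of -0.14, and Isg15 was 91.8 and 146 CPM. The list's direction was not stable: its median was 0.31 without monocyte-marker cells, 0.29 with 20 or more C1q UMIs, 0.65 after thinning and 0.95 without members of 2 or more other-lineage UMIs.

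**Figure D5:**
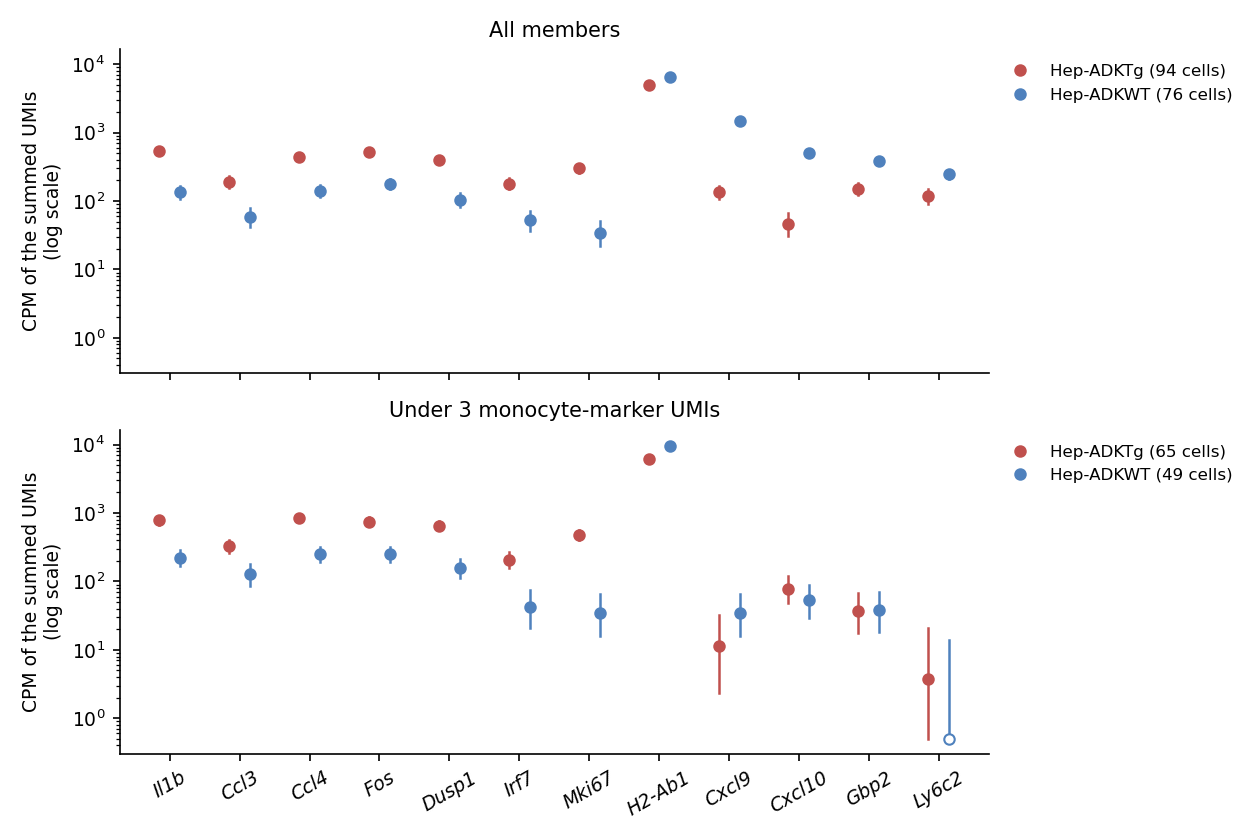
Summed CPM of 12 genes (logarithmic axis) in Hep-ADKTg (red) and Hep-ADKWT (blue) over all members (top, 94 and 76 cells) and over members with fewer than 3 monocyte-marker UMIs (bottom, 65 and 49 cells), with exact 95% Poisson intervals; an open point marks 0 UMIs. Il1b stays apart in both panels, 531 against 134 CPM and 782 against 223 CPM, while Gbp2 meets at 37.4 against 38.4 CPM in the lower one.

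Class II presentation genes were lower in Hep-ADKTg for 9 of 12 genes and higher for 3, with a median of -0.33. H2-Ab1 was 4904 CPM in Hep-ADKTg and 6408 CPM in Hep-ADKWT (log2 ratio -0.39, -0.45 to -0.32), and Cd74, the invariant chain that escorts class II molecules, was 11740 and 15340 CPM (-0.39). Ciita was 172 and 239 CPM (-0.48, -0.84 to -0.11). B cells, which also make these proteins, were close: 2315 CPM of H2-Ab1 in Hep-ADKTg and 2203 CPM in Hep-ADKWT. Cd40, the costimulatory receptor engaged by helper T cells, was 13.3 CPM in Hep-ADKTg and 72.5 CPM in Hep-ADKWT. In members with fewer than 3 monocyte-marker UMIs, H2-Ab1 was 6095 and 9699 CPM. In the 46 Hep-ADKTg and 7 Hep-ADKWT members with fewer than 2 UMIs of other lineages the class II median was 0.44, on 7 cells of one side.

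Macrophage identity genes divided, 7 of 16 higher and 9 lower, with a median of -0.04 and none past 2-fold; with hepatocyte-list UMIs left out of the totals the median was 0.0089. Csf1r stood at 581 CPM in Hep-ADKTg and 704 CPM in Hep-ADKWT (-0.28, -0.48 to -0.08), and Lyz2, the lysozyme of myeloid cells, at 4243 and 5572 CPM (-0.39). Aif1, the calcium-binding protein IBA1, was 731 CPM in Hep-ADKTg and 498 CPM in Hep-ADKWT (0.55). Apoe was 13926 and 8542 CPM (0.71), while B cells, which should lack it, held 2769 CPM in Hep-ADKTg and 664 CPM in Hep-ADKWT. Lysosome genes were higher for 13 of 21 (median 0.12), near the 55.7% of all genes, and the median lay between -0.35 and -0.073 when monocyte-marker, other-lineage or proliferating members were left out at 3 or 10 UMIs, with 20 or more C1q UMIs, or after thinning. Grn, progranulin, stood at 395 CPM in Hep-ADKTg and 270 CPM in Hep-ADKWT.

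Complement genes outside the C1q chains included C3, the central component, at 789 CPM in Hep-ADKTg and 148 CPM in Hep-ADKWT. B cells, which carried hepatocyte RNA too, held 528 CPM of C3 in Hep-ADKTg and 135 CPM in Hep-ADKWT. Trf, the iron carrier transferrin made by hepatocytes, was likewise 1655 and 377 CPM in members and 1375 and 366 CPM in B cells. Lipid-associated macrophage genes were higher for 5 of 11 genes, and Trem2, their lipid-sensing receptor, stood at 91.8 CPM in Hep-ADKTg and 122 CPM in Hep-ADKWT. Class I presentation genes were higher for 3 of 11 (median -0.21), scavenger and efferocytosis receptors for 7 of 12 (0.08) and Kupffer genes outside the rule for 6 of 11 (0.08).

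Monocyte genes were lower in Hep-ADKTg for 10 of 12, with a median of -0.60. Ly6c2, a marker of classical monocytes, was 117 CPM in Hep-ADKTg and 245 CPM in Hep-ADKWT (-1.07), seen in 9 and 18 cells, and S100a4, a calcium-binding protein of migrating cells, was 302 and 698 CPM (-1.21). Plac8 stood at 714 and 1015 CPM (-0.51). After thinning S100a4 was 2.85 and Plac8 0.85 on the log2 scale, and without members of 2 or more other-lineage UMIs, which left 46 Hep-ADKTg and 7 Hep-ADKWT cells, S100a4 was 1.51, Plac8 2.26 and the list's median 1.84. Members with 3 or more monocyte-marker UMIs were 29 of 94 in Hep-ADKTg (30.9%, 21.7 to 41.2) and 27 of 76 in Hep-ADKWT (35.5%, 24.9 to 47.3), and without them the list's median was -0.02. Adhesion and migration genes were lower for 11 of 15 (median -0.21), among them Itgb7, an integrin beta chain, with 41.7 CPM in Hep-ADKTg and 98.1 CPM in Hep-ADKWT.

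The 12 genes highest in Hep-ADKTg by ratio were S100a9, S100a8, Cd300e, Hamp, Ugt2b5, Fgl1, Hspa1a, Lrg1, Cenpf, Cyp7b1, Hc and Cfhr2. S100a9, an alarmin of neutrophils, was 858 CPM in Hep-ADKTg and 7.11 CPM in Hep-ADKWT, and 3 cells held 99.2% of it. Cd300e, an activating receptor of non-classical monocytes, was 85.1 CPM (51 UMIs in 20 cells) in Hep-ADKTg and 1.42 CPM (1 UMI) in Hep-ADKWT, while B cells held 0.896 and 0.858 CPM. Hamp, the liver hormone hepcidin, was 125 and 2.84 CPM in members and 141 and 9.44 CPM in B cells, so the B cells carried it in the same direction.

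The 12 lowest were Gzma, Mzb1, Saa3, Cxcl10, Cxcl9, Hmox1, Txndc5, Ly6d, Tnip3, Cd40, Klrd1 and Gzmb. Gzma, a granzyme of cytotoxic lymphocytes, had no UMI in Hep-ADKTg and 163 in 4 Hep-ADKWT cells. With the floor of 3 UMIs in place of 0, Gzma was 46.3-fold lower, and the upper log2 limit of its interval was -5.22. Mzb1, a plasma cell chaperone, had 1 UMI in Hep-ADKTg and 49 UMIs in Hep-ADKWT. Hmox1, heme oxygenase-1, was 31.7 CPM in Hep-ADKTg and 310 CPM in Hep-ADKWT, and 91.7% of the Hep-ADKWT UMIs lay in 1 cell; without the top cell of each library its log2 ratio was 0.06. Tnip3, an inhibitor of NF-kB signalling, was 11.7 CPM in 3 Hep-ADKTg cells and 65.4 CPM in 13 Hep-ADKWT cells. Ccl5, a chemokine abundant in T and NK cells, was 342 and 1520 CPM, and leads cluster 3, so lymphocyte transcripts moved with it and their part was not tested.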

How the data were processed

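Non-parenchymal liver cells were profiled by droplet 3′ RNA sequencing in 1 library per group. The authors deposited whole-number UMI counts per gene and barcode. The submitters' processing notes name GRCm38, mm10, Cell Ranger 6.1.2 and Seurat 4.0.2, while the file headers name Cell Ranger 5.0.1. The series text names SoupX, but the deposited counts are whole and were treated as uncorrected, so free RNA remains in them.

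Cells were gated and summed by library with scanpy 1.11.5, numpy 2.4.6 and scipy 1.17.1. With 1 library per group no test across samples was possible: values carry exact Poisson or binomial 95% intervals, which cover counting error only. A gene was called past 2-fold with at least 50 UMIs and an interval that left out equality. List medians took genes with at least 20 UMIs, without the rule's genes; comparisons within a library also needed 3 UMIs due in the smaller group. Ratios against 0 used a floor of 3 UMIs per library. Members alone were clustered (1000 variable genes without hepatocyte-list, mitochondrial, ribosomal, haemoglobin and immunoglobulin genes, 15 components, Leiden resolution 0.5). Scrublet's automatic threshold called no doublet, and no cell was removed as one. Named genes were the 12 highest and 12 lowest called ratios with a UMI in at least 5% of members of either library, leading genes of clusters, and genes of the lists. The members and lists were chosen with earlier results of these data known. The ratios and calls were tested on independent Poisson counts drawn from the members' summed means with known changes. Such counts leave out the gathering of a gene's UMIs in single cells, so they check the calculation only. TMM used edgeR 4.0.16 in R 4.3.3.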

Additional observations from a re-analysis of the deposited data

How the results depend on the processing

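No paired analysis was possible because each group is 1 library. Of 228 values of shares, counts of genes past 2-fold and list medians under 19 alternatives, 6 of them chosen after seeing the data, 189 lay within the main value's interval or, for counts, 1.5 times of it, 37 lay outside it, and 2 changed sign where the main interval had left out 0. Counted without regard to intervals, 26 of 192 list medians and share ratios lay on the other side of 0, among them 6 of 17 for lysosome, 5 of 17 for identity and 4 of 17 each for interferon and chemokines. Of 499 values of single genes, 20 changed sign where the main interval had left out 0. All values are Hep-ADKTg over Hep-ADKWT, and the causes of the moves were not tested.

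Leaving out members with 2 or more UMIs of other lineages kept 46 Hep-ADKTg and 7 Hep-ADKWT cells. It gave log2 share ratios of 2.52 of kept cells and 0.14 of C1q macrophages, 114 genes higher and 10 lower, and medians of 0.68 (identity), 0.44 (class II), 1.84 (monocyte, sign changed from -0.60), 0.95 (interferon), 1.08 (lysosome) and 0.32 (proliferation). There the median of all genes was 0.40, and Csf1r was 0.25, H2-Aa 0.44, H2-Ab1 0.37, H2-Eb1 0.080, Cd74 0.25, Ciita 0.66, Plac8 2.26, S100a4 1.51 and Gbp2 0.23. The added choice of 10 or more other-lineage UMIs used the list without Igkc, Jchain, Iglc2 and Ighm, which the choice of 2 or more counted. It kept 79 Hep-ADKTg and 55 Hep-ADKWT cells and gave 56 genes lower. Its medians were -0.39 (identity), -0.57 (class II) and -0.29 (lysosome). Without members of 3 or more monocyte-marker UMIs (65 and 49 cells, added), 119 genes were higher and 26 lower, with medians of -0.57 (class II), -0.021 (monocyte), 0.31 (interferon), 0.59 (NF-kB), -0.35 (lysosome) and 0.60 (proliferation), Cxcl10 at 0.55 and Gbp5 at 0.28. With at least 20 C1q UMIs (added), 58 genes were lower, the medians were -0.54 (class II), -0.83 (monocyte), 0.29 (interferon) and -0.073 (lysosome), and Cxcl10 was 0.45. Without members of 10 or more proliferation UMIs (76 and 57 cells, added), the medians were -0.31 (identity), -0.16 (lysosome) and -0.24 (proliferation, sign changed from 1.51).

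Thinning kept cells to 1000 UMIs and gating them again (50 and 45 members) gave 24 genes higher and 5 lower, medians of 0.65 (interferon) and -0.26 (lysosome), and Ciita 0.99, Plac8 0.85, S100a4 2.85, Cxcl9 0.17, Cxcl10 0.85 and Stmn1 -2.74. Genes with at least 20 UMIs gave 539 higher and 226 lower, and no filter 794 and 299, against 234 and 99. The mean of CPM per cell gave 157 lower and Stmn1 -0.31. Without each library's top cell Hmox1 was 0.061. Higher genes were 70.3% of calls in the main sums, 91.9% without cells of 2 or more other-lineage UMIs, 82.8% after thinning and 82.1% without monocyte-marker cells. TMM factors moved the median of all genes from 0.079 to -0.019. Il1b lay between 0.67 and 2.25 and Fos between 0.95 and 3.27 in every alternative that gave a value. No value was given where both libraries held 3 or fewer counts. At these depths, genes under 50 UMIs, shares of under 100 members and levels in 14 Kupffer-gated Hep-ADKWT cells are imprecise.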
